A study of Arabidopsis thaliana with 4 samples.

Results

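Of the 27416 protein-coding genes in the tables, 6 were taken by name for their place in seed oil synthesis. No measured value entered the rule, but earlier results of these data were known when these 6 genes were chosen. They are DGAT1 (AT2G19450) and PDAT1 (AT5G13640), which complete triacylglycerol, FAD2 (AT3G12120) and FAD3 (AT2G29980), which desaturate its fatty acids, FAE1 (AT4G34520), which elongates them, and WRI1 (AT3G54320), a transcription factor of oil synthesis. Their transcripts were measured by RNA-seq in whole seeds of Arabidopsis thaliana that held embryos at the post-mature green stage, late in seed development. The wild type was ecotype Columbia (Col 0), and the mutant, ddcc, was in the same ecotype, both grown in a greenhouse. The name ddcc denotes loss of the DNA methyltransferases DRM1, DRM2, CMT2 and CMT3, which methylate cytosines mainly outside CG sites, and the labels spell out neither genes nor alleles. Each genotype had 2 libraries, which the labels call biological replicates without saying from which plants they came, so p-values refer to the spread between these libraries. In the limma tests the spread of each gene was moderated towards that of genes at a similar level.

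Seed oil is triacylglycerol, a glycerol backbone that carries fatty acids in every position and is stored in oil bodies of the embryo. Fatty acids are made in plastids, and carbon from sugars is fed into that route by glycolytic enzymes that WRI1 switches on. In the endoplasmic reticulum oleate is either elongated by FAE1 or desaturated, first to linoleate by FAD2 and then to linolenate by FAD3. DGAT1 adds the last fatty acid from acyl-CoA, while PDAT1 takes it from phosphatidylcholine, the lipid on which FAD2 and FAD3 act.

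Depth was low and uneven. Whole reads inferred from the deposited values totalled 1122934 for ddcc replicate 1, 1166635 for ddcc replicate 2, 3416071 for wild-type replicate 1 and 1292023 for wild-type replicate 2. Wild-type replicate 2 carries a source name that says ddcc, against the wild type of its other labels. DRM2 stood at 4.85 and 8.33 in the ddcc libraries and at 39.3 and 39.6 in the wild-type libraries, and SDC, a target of silencing through non-CG methylation, at 1644 and 1897 against 0.880 and 2.52. The library in question thus had the wild-type level of both genes, and it was kept as wild type. DRM1 had 0 reads in all 4 libraries, and CMT2 and CMT3 had too few reads to check the labels. Summed seed markers (SESA1, CRA1, OLEO1, M17) reached 39964 and 46752 in ddcc against 83765 and 86315 in wild type. Most of that gap was M17, a late embryogenesis gene, with means of 10072 in ddcc and 43423 in wild type. It was the 1 of these 4 markers that passed the test (log2 fold change -2.10, limma adjusted p = 0.00357). OLEO1 had means of 11831 against 19296 (adjusted p = 0.281), while the means of CRA1 (20850 against 21590) and SESA1 (606 against 731) lay closer together. Summed endosperm markers ran the other way, at 23685 and 32221 in ddcc against 13984 and 15749 in wild type. Nearly all of that sum was EPR1, a cell wall protein gene of the endosperm (adjusted p = 0.15), while ZOU, ALE1, PHE1 and IKU2 had no read. The other detected endosperm markers had lower means in ddcc, FIS2 at 3.59 against 11.7 (log2 fold change -1.39, adjusted p = 0.125) and AGL62 at 6.58 against 8.98 (adjusted p = 0.853). Seed coat markers summed to 588 and 589 in ddcc and to 450 and 543 in wild type, with BAN at 0. Most of that sum was SBT1.7, with means of 475 in ddcc and 418 in wild type. TT10 stood at 82.4 and 65.6 in ddcc against 61.4 and 6.78 in wild type, while TT12 had a lower mean in ddcc (26.3 against 33.2). No seed coat marker passed the test. Silique wall markers summed to 9.83 and 14.0 in ddcc, inside the wild-type range of 8.29 to 16.8, with IND, SHP2 and FUL at 0. The part of the seed, endosperm and seed coat sums in the results below was not tested. In RNA from whole seeds, fewer cells of a type and less RNA per cell cannot be told apart.

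Values are the deposited normalised read counts, which are not divided by gene length. Log2 fold changes are ddcc minus wild type on the log2(value + pseudocount) scale, with a pseudocount of 1 unit (1.56, the mean column total divided by 1000000). A gene was called at an adjusted p under 0.05 in limma, and the 15780 genes whose mean reached 1 unit were tested. Of these, 6.48% were called in either direction, 3.03% higher and 3.45% lower in ddcc. Higher genes made up 46.7% of these calls, 57.2% with quantile normalisation and 87.4% under equal nuclear totals. Of the 6 oil genes 5 were tested, and 1 of the 5, FAD2, was called, as higher in ddcc. The libraries of the genotypes did not overlap for 3 of the 5 (FAD2, DGAT1 and WRI1), against 51% of all genes tested, so that a gap between the genotypes was common in these data.

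**Figure D1:**
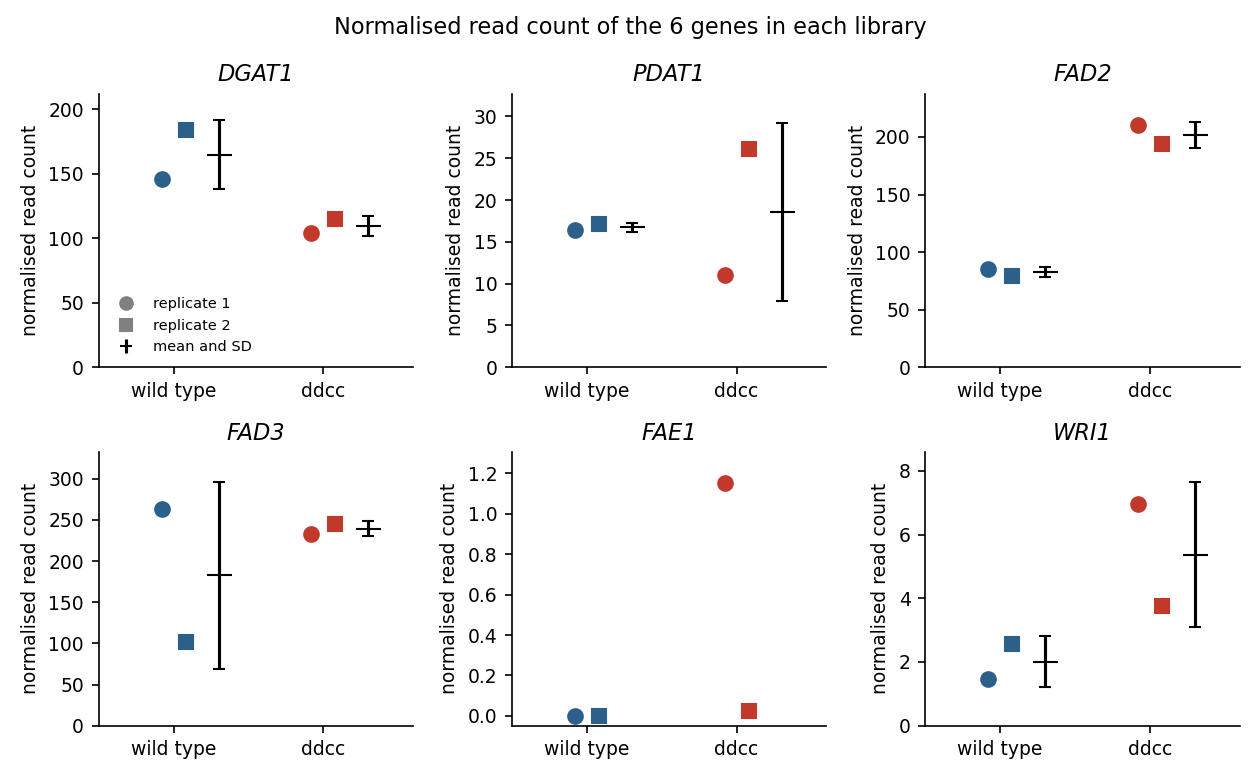
Normalised read count (vertical axis, a separate scale per gene) of the 6 genes in the 2 wild-type and 2 ddcc libraries. Circles and squares are replicates 1 and 2, and black marks give the mean and SD over the 2 libraries, left out for FAE1, which had 1 read in all. The genotypes lie apart for FAD2, with 193.6 as the lowest ddcc value and 85.7 as the highest wild-type value, while for FAD3 the 2 wild-type libraries enclose both ddcc libraries.

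The windows of 250 bases before the annotated start of FAD2, FAD3 and FAE1 are shown because FAD2 was the oil gene called, FAD3 acts on its product, and FAE1, which competes for the same oleate, was almost silent. All are read 5′ to 3′ on the gene's strand in TAIR10.1, at chr3:3863251-3863500 (minus strand) for FAD2, chr2:12785191-12785440 (minus strand) for FAD3 and chr4:16493955-16494204 (plus strand) for FAE1. Capitals mark ACGT, the core bound by bZIP factors such as ABI5 and bZIP67, and CATGCA or its reverse complement, the RY core bound by B3 factors such as ABI3, FUS3 and LEC2.
FAD2: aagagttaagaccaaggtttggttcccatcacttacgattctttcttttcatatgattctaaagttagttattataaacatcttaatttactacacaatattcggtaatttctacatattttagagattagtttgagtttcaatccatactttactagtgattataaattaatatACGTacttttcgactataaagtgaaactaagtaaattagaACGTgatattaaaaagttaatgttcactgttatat
FAD3: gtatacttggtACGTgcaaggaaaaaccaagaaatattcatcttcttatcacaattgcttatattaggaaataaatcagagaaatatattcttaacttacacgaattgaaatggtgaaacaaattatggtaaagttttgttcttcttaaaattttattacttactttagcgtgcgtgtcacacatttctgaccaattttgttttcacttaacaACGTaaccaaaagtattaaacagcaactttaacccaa
FAE1: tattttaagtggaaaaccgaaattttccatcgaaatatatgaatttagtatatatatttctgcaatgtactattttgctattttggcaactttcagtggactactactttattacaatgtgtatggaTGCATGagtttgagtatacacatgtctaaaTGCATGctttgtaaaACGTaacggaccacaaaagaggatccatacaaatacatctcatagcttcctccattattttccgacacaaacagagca
The ACGT core occurred at 75 and 35 bases before the start of FAD2, at 239 and 37 bases before that of FAD3 and at 78 bases before that of FAE1. FAE1 alone of the 6 windows held the RY core, on the minus strand, beginning 123 and 93 bases before the start. Searched on both strands of 26713 windows of this length, ACGT occurred in 44.2%, CATGCA in 8.52%, the G-box CACGTG, which contains ACGT, in 6.58%, and the AW-box, the motif that WRI1 binds, in 9.18%. None of the 6 windows held the AW-box or the G-box. As cytosines open to methylation, the FAD2 window had 10 in CG, 3 in CHG and 51 in CHH contexts, counted on both strands (H is any base but G). The FAD3 window had 10, 6 and 56, and the FAE1 window 10, 9 and 62. Windows of all genes had medians of 10, 8 and 58. The FAD2 and FAD3 windows lay below the median in CHG and CHH, as did those of PDAT1 (2 and 40) and WRI1 (2 and 55). The DGAT1 window (8 and 43) lay below it in CHH only, and the FAE1 window above it in both. The FAD2 values lay inside the range from the 5th to the 95th percentile of all windows, 2 to 18 in CHG and 43 to 74 in CHH. The DGAT1 and WRI1 windows had no CG. Methylation itself was not measured in these libraries.

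FAD2, the microsomal desaturase that turns oleate into linoleate, was the oil gene that rose in ddcc. Its normalised read count was 210.0 in replicate 1 and 193.6 in replicate 2 of ddcc, against 85.7 and 79.3 in those of wild type. Both ddcc libraries lay far above both wild-type libraries, and within each genotype the replicates were close. The means were 202 ± 11.6 in ddcc and 82.5 ± 4.50 in wild type (SD, n = 2), and the log2 fold change was 1.27 (SE 0.23, limma adjusted p = 0.00495). The values rest on 178 and 160 reads in ddcc and on 161 and 60 in wild type. With the library sizes implied by the deposited scaling, the read ratio was 2.41 (exact binomial interval 2.03 to 2.87, counting error only). When the nuclear genes of each library were given the same total, the log2 fold change was 1.66, but the median of all genes moved to 0.38, and relative to that median FAD2 stood at 1.29 (1.26 with the deposited scaling). The call was lost when either ddcc library was left out (adjusted p = 0.363 and 0.378, with 1 gene of all tested then called) and in limma without a trend (0.131). It held without wild-type replicate 1 (0.0335) and without wild-type replicate 2, the library with the conflicting source name (log2 fold change 1.22, 0.0372). FAD2 spans chr3:3860251-3863250 on the minus strand in TAIR10.1, with 2 exons in its longest transcript. AT3G12110, 161 bases beyond its end on the other strand, had no read in any library.

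FAD3, which adds the next double bond and makes linolenate, had normalised read counts of 232.6 and 245.4 in ddcc against 263.0 and 101.9 in wild type. On the deposited scaling the ddcc libraries agreed closely, while the wild-type libraries stood 1 above and 1 below them. The difference between genotypes (239 ± 9.09 against 182 ± 114, SD, n = 2) did not exceed the spread, and the log2 fold change of 0.54 had an SE of 0.33 (limma adjusted p = 0.383). Wild-type replicate 1 exceeded replicate 2 by a ratio of 2.6 in reads (interval 2.04 to 3.35), from 490 and 76 reads. That gap, 1.35 on the log2 scale, was larger than the gap between the same libraries in 93.8% of all genes tested. The result turned on which of them was used: without wild-type replicate 1 FAD3 was called higher in ddcc (log2 fold change 1.22, adjusted p = 0.0353), and without wild-type replicate 2 the difference was -0.14 (0.747). The scaling mattered too. Scaled instead to 1000000 reads per library, FAD3 stood at 175.4 and 174.0 in ddcc against 143.4 and 58.8 in wild type, without overlap. Under equal nuclear totals the log2 fold change was 0.93 (limma adjusted p = 0.0517), and with equal library totals 0.90 (0.0624). FAD3 was called in neither. Relative to the median of all genes it stood at 0.55 under equal nuclear totals and at 0.52 with the deposited scaling. FAD3 lies at chr2:12781524-12785190 on the minus strand and has 8 exons.

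FAE1, the seed condensing enzyme that elongates oleate to eicosenoate, was at or near 0 in both genotypes. Its values were 1.15 and 0.0266 in ddcc against 0 and 0 in wild type. They stand for 1 read in ddcc replicate 1 and 0 reads in each of the other libraries, since the equalisation of library sizes can give a small positive value to a count of 0. A floor of 3 reads over both libraries of a genotype is 1.79 in ddcc and 1.14 in wild type, so a level up to there is possible, no difference was detectable at this depth, and no fold is given. The gene, a single exon at chr4:16494205-16495842 on the plus strand, follows 442 bases after KCS17, a gene of the same condensing enzyme family, which had 0 reads in all 4 libraries.

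DGAT1, the acyl-CoA route to triacylglycerol, had normalised read counts of 104.0 and 114.8 in ddcc against 146 and 184 in wild type. Both ddcc libraries lay below both wild-type libraries, by less than the gap in FAD2. The means of 109 ± 7.64 and 165 ± 27.1 (SD, n = 2) gave a log2 fold change of -0.58 (SE 0.23), which did not pass the test (limma adjusted p = 0.168, unadjusted p = 0.0267). On the deposited scaling the read ratio was 0.694 (interval 0.580 to 0.828), from 183 reads in ddcc and 416 in wild type. Scaled to 1000000 reads per library in place of the deposited scaling, DGAT1 stood at 78.4 and 81.4 in ddcc against 80.8 and 108 in wild type, so that the genotypes then overlapped. Its log2 fold change ranged from -0.75 to -0.19 over the settings run, was negative in each, and was called in none. DGAT1 has 16 exons at chr2:8426117-8429853 on the plus strand.

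PDAT1, the phospholipid route, was low and did not separate the genotypes. Its values were 11.0 and 26.1 in ddcc against 16.4 and 17.1 in wild type, so the ddcc libraries enclosed both wild-type libraries. The means were 18.6 ± 10.7 and 16.8 ± 0.538 (SD, n = 2), and the log2 fold change was 0.03 (SE 0.43, limma adjusted p = 0.981). The read ratio was 1.11 with an interval of 0.678 to 1.8, which leaves room for a difference in either direction. The 2 ddcc libraries differed from each other by a ratio of 0.399 (interval 0.162 to 0.902), from 9 and 22 reads. PDAT1 spans chr5:4392937-4397541 on the plus strand with 6 exons, and AT5G13650, which had 98.1 to 120 in the 4 libraries, begins 36 bases after its end.

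WRI1, the AP2-type factor that switches on plastid glycolysis and fatty acid synthesis, was barely detected. Its values were 6.98 and 3.77 in ddcc against 1.45 and 2.57 in wild type. Both ddcc libraries were higher than both wild-type libraries, but the values stand for 6, 3, 3 and 2 reads. The means of 5.37 ± 2.27 and 2.01 ± 0.793 (SD, n = 2) corresponded to 0.93 on the log2 scale (SE 0.59, limma adjusted p = 0.399), and the read ratio of 2.84 had an interval of 0.854 to 10.8. WRI1 has 6 exons at chr3:20114488-20118745 on the plus strand. No transcript of the 6 genes overlapped another annotated locus, and none had a copy of at least 95% identity over 100 bases elsewhere in the genome.

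**Figure D2:**
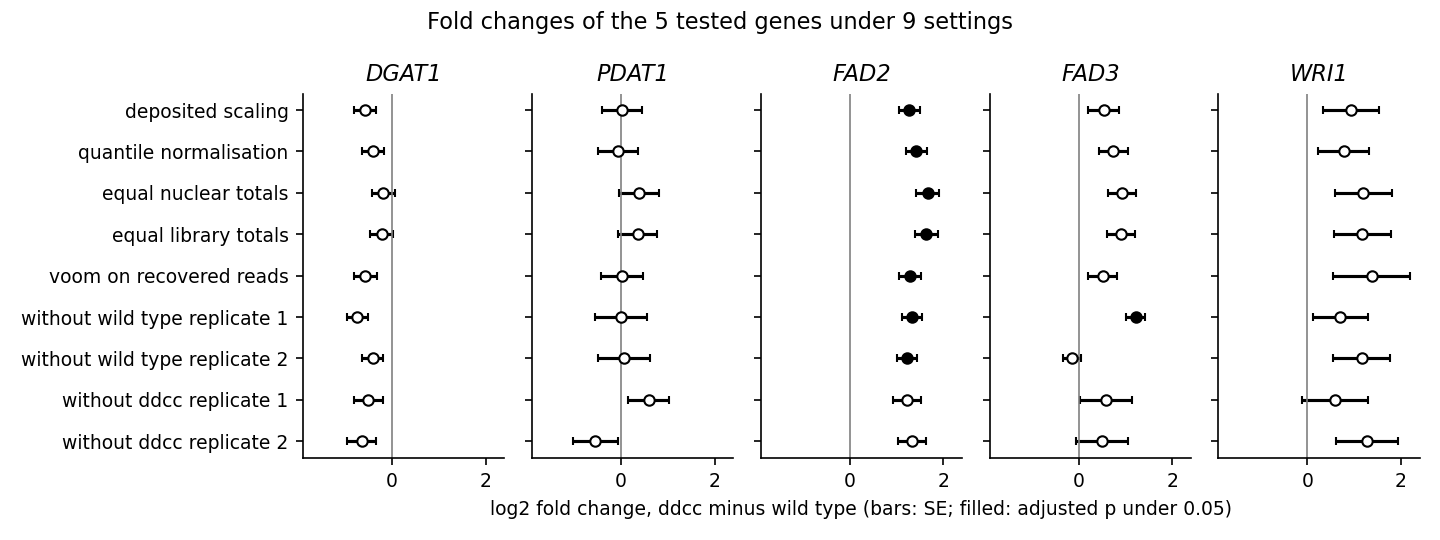
Log2 fold change (ddcc minus wild type, horizontal axis) of the 5 tested genes under the deposited scaling and 8 alternatives, with bars for the SE and filled points for an adjusted p under 0.05. FAD2 stays between 1.22 and 1.66 and loses its call without either ddcc library, while FAD3 moves from -0.14 to 1.22 with the wild-type library left out.

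Divided by transcript length, the levels formed an upper and a lower tier in all 4 libraries, with FAD3, FAD2 and DGAT1 in the upper. In ddcc the level per kb of transcript was 139 and 147 for FAD3, 107 and 98.7 for FAD2, and 45.6 and 50.3 for DGAT1, so that the libraries of these 3 genes did not overlap. In wild type it was 158 and 61.1 for FAD3, 64.0 and 80.8 for DGAT1, and 43.7 and 40.4 for FAD2. FAD3 and DGAT1 overlapped there, and FAD2 came below both, so FAD2 and DGAT1 changed places between the genotypes. PDAT1, at 3.52 to 8.36 per kb, and WRI1, at 0.739 to 3.55, made up the lower tier with FAE1. In ddcc replicate 1 PDAT1 and WRI1 were at 3.52 and 3.55 per kb of transcript, and their order turned when coding length was used. FAE1 was the lowest of the 6 in each library.

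Ratios between genes of the same library are unchanged by a scaling factor common to all its genes, though not by quantile normalisation. The ratio of FAD2 to DGAT1 per kb, chosen after its values were seen, was 2.35 and 1.96 in ddcc against 0.682 and 0.50 in wild type. The genotypes stood apart, with FAD2 in excess in both ddcc libraries and DGAT1 in both wild-type libraries, a mean log2 difference of 1.88. The ratio of FAD2 to FAD3, the consecutive desaturases, was 0.768 and 0.671 in ddcc against 0.277 and 0.661 in wild type. Here the lower ddcc library and the higher wild-type library nearly met, wild-type replicate 1 alone lay far below, and the mean log2 difference was 0.75. The ratio of DGAT1 to PDAT1, the alternative last steps, was 12.9 and 6.02 in ddcc against 12.2 and 14.7 in wild type, and the genotypes overlapped. Exact two-sided permutation tests over the 4 libraries gave p = 0.33 for the ratios of FAD2 to DGAT1 and to FAD3, the smallest p that 2 against 2 allows, and p = 0.667 for DGAT1 to PDAT1. With 3 relations in this family no adjusted value could pass. No ratio was tested for FAE1, which had 1 read.

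**Figure D3:**
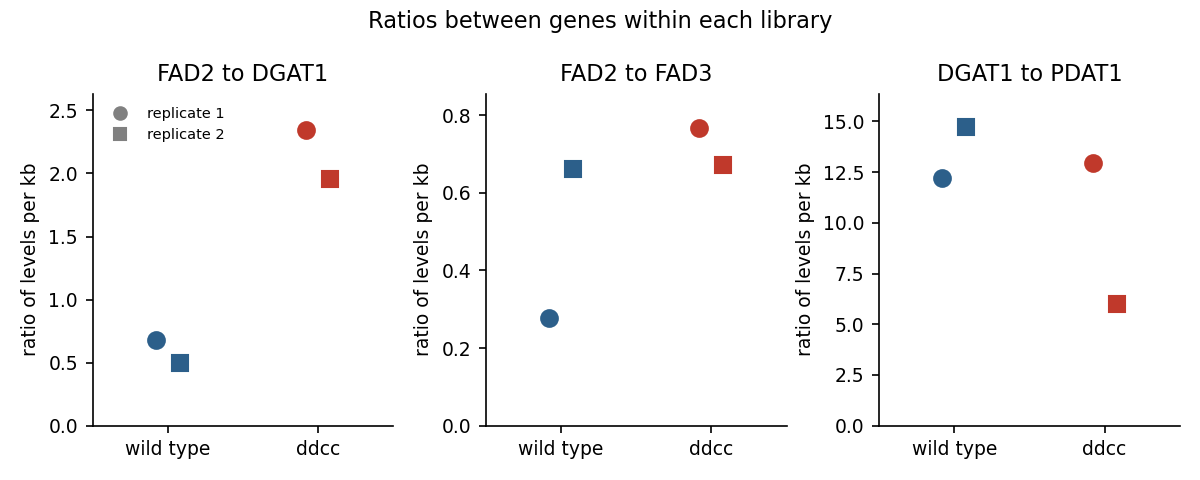
Ratio of the levels per kb of transcript (vertical axis, starting at 0) between pairs of genes in each wild-type and ddcc library, with circles for replicate 1 and squares for replicate 2. FAD2 to DGAT1 is 1.96 or more in ddcc and 0.682 or less in wild type, whereas the other ratios have at least 1 wild-type library close to or among the ddcc libraries.

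The profiles most like those of the oil genes were sought among 11877 tested genes with a mean of at least 5 units, as the root mean square distance between centred log2 values over the 4 libraries. BGLU44, a beta-glucosidase gene, came closest to FAD2 at a distance of 0.024, with 91 and 80 for the ddcc libraries, replicate 1 first, and 36 and 33 for wild type, followed by AT4G29870 (0.030). APG8H, an autophagy gene of the ATG8 family, came closest to DGAT1 (0.025) with 101.6, 110.0, 143 and 185, followed by AT1G75230. For PDAT1 they were AT5G18140 and ATL3, for FAD3 AT4G36150 and LNG2, and for WRI1 the exosome subunit gene RRP41 and AT2G40316. Such likeness was not unique to the genes named: of the 11877 genes, 188 lay within 0.1 of DGAT1, 35 of FAD2, 23 of PDAT1, 17 of FAD3 and 15 of WRI1.

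Around these genes, 5 lists of the pathway were read against all genes tested, whose median log2 fold change was 0.02. In glycerolipid assembly 24 of 27 genes were tested, 0 were higher and 1 lower in ddcc, and the median was -0.12. The lower gene was DGAT3, a soluble diacylglycerol acyltransferase gene and the list's highest in mean count, at 374 and 310 in ddcc against 589 and 671 in wild type. Its libraries did not overlap, and its log2 fold change was -0.88 (SE 0.22, limma adjusted p = 0.0261), but it was no longer called with quantile normalisation (-0.58, 0.123) or under equal nuclear totals (-0.49, 0.173). The closest relatives of the chosen acyltransferases, picked after their values were seen, did not pass either. DGAT2 had 2 to 9 reads per library (adjusted p = 0.851), and PDAT2 stood at 17.9 and 27.5 in ddcc against 28.9 and 24.0 in wild type (0.767). LPAT2, also picked after its values were seen, stood at 32.2 and 46.8 in ddcc against 9.76 and 21.7 in wild type. It did not pass (log2 fold change 1.32, limma adjusted p = 0.0644) but did under equal nuclear totals (0.00885). Both ddcc libraries lay above both wild-type libraries in 4 of the 24 and below in 4, against 25.7% and 25.3% of all genes tested. With equal nuclear totals the list's median was 0.24 and that of all genes 0.38.

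Among desaturases and their electron donors 14 of 17 were tested, and 0 were higher and 1 lower. The median was 0.52 (0.03 over the 8 genes left by a filter at 5 units, and 0.24 with a pseudocount of 5 units). AAD5 (mean 4.20 in ddcc against 0 in wild type) and CB5-B (5.35 against 1.47) passed the filter through ddcc alone. AAD4, a plastid acyl-ACP desaturase gene, fell from 49.8 ± 5.67 to 20.9 ± 4.34 (SD, n = 2; log2 fold change -1.20, adjusted p = 0.0357). It has a close copy in the neighbouring AAD2, between which the authors' counting could have split reads, and its call was lost with equal nuclear totals (0.11). SSI2, the main stearoyl-ACP desaturase gene, with the list's highest mean count but not its highest level per kb (47.0, against 92.0 for the cytochrome b5 gene CB5-D), stood at 87.4 and 96.6 in ddcc against 101 and 60.2 in wild type, and the genotypes overlapped (0.687). FAD6, the plastid counterpart of FAD2, was singled out after its values were seen. It had 82.6 and 81.1 in ddcc against 39.3 and 49.8 in wild type. This gap in the direction of FAD2 did not pass (log2 fold change 0.86, SE 0.27, adjusted p = 0.0691). It did with quantile normalisation (0.0455) and under equal nuclear totals (0.00728). FAD5, also picked after its values were seen, went the other way, at 29.7 and 36.1 in ddcc against 53.0 and 88.8 in wild type. Its gap did not pass (log2 fold change -1.03, limma adjusted p = 0.0625), nor with quantile normalisation (0.0707) or under equal nuclear totals (0.193).

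In fatty acid elongation 13 of 23 were tested, and 2 were higher and 1 lower. The median was 0.76 (-0.08 over the 8 genes left by the filter at 5 units, and 0.38 with the pseudocount of 5 units). KCS1 (mean 5.39 in ddcc against 0.280 in wild type), KCS2 (5.39 against 1.16) and KCS12 (4.15 against 0) passed the filter through ddcc alone. CER60, a condensing enzyme gene for very long chains of waxes, was at 35.3 and 30.4 in ddcc against 9.01 and 3.03 in wild type (log2 fold change 2.3, SE 0.46, adjusted p = 0.00893). KCS16 of the same family was also higher, at 34.6 and 56.4 against 20.5 and 14.8 (1.27, 0.0453). KCS15 was lower, at 8.56 and 19.0 against 35.4 and 38.2 (-1.41, 0.0454), but it overlaps AT3G52155 on the other strand by 546 bases, so its reads are uncertain, and with a pseudocount of 0.5 units neither KCS15 (0.0522) nor KCS16 (0.0507) was called. KCR1, the ketoacyl reductase gene and the list's highest in mean count, had 63.8 and 66.5 in ddcc against 34.9 and 38.2 in wild type, without overlap and without a call (0.0963).

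The list of WRI1-dependent plastid genes, most of which act in making pyruvate and fatty acids, held 20 tested of 22, of which 2 were higher and 0 lower. Their median was 0.64 (0.82 over the 9 genes left by the filter at 5 units, and 0.35 with the pseudocount of 5 units). Both ddcc libraries lay above both wild-type libraries in 12 of the 20 and below in 0, against 25.7% and 25.3% of all genes tested. KAS1 (mean 8.96 in ddcc against 1.47 in wild type) and FATA (2.998 against 0.280) passed the filter at 1 unit through ddcc alone. Both count among these 12 and in the median of 0.64, so the filter fixed the direction of their means. PKP1, a plastid pyruvate kinase gene and the list's highest in mean count, was at 171 and 142 in ddcc against 73.3 and 90.6 in wild type (log2 fold change 0.92, SE 0.24, adjusted p = 0.0356). CAC2, the biotin carboxylase subunit of acetyl-CoA carboxylase, was at 20.1 and 21.7 against 5.15 and 6.52 (1.61, 0.036), and it overlaps AT5G35370 by 64 bases on the other strand. The remaining 18 did not pass the test. Their values are low: 9 of the 20 reached a mean of 5 units. The AW-box stood in 2 of the 22 upstream windows of this list.

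Among the regulators of oil genes 13 of 21 were tested, 1 was higher and 0 lower, with a median of 0.04. ABI3, a B3 factor that maintains seed maturation, was at 397 and 562 in ddcc against 271 and 255 in wild type (log2 fold change 0.84, SE 0.23, adjusted p = 0.0422). ABI5, the bZIP factor with the highest mean count in the list, was at 1094 and 1243 against 2015 and 1448, below wild type in both libraries without passing (0.202). LEC1 and LEC2, which act above WRI1 earlier in the embryo, had 0 reads in all 4 libraries. Leaving out any 1 of the 4 libraries removed the calls of the 8 list genes named as called here, except that of CER60 without wild-type replicate 1 (adjusted p = 0.0275). None of the 8 was called without a filter or in limma without a trend, either. Under equal nuclear totals no list gene was called lower, and the higher calls numbered 1 in glycerolipid assembly, 2 among desaturases, 4 in elongation, 5 among the WRI1-dependent genes and 2 among the regulators, with the median of all genes at 0.38. The same setting called 9.06% of all genes tested higher and 1.3% lower. With each library left out in turn the list medians ran from -0.22 to -0.02 in glycerolipid assembly, 0.29 to 0.55 among desaturases, 0.25 to 0.75 in elongation, 0.48 to 0.68 among the WRI1-dependent genes and 0.01 to 0.17 among the regulators.

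**Figure D4:**
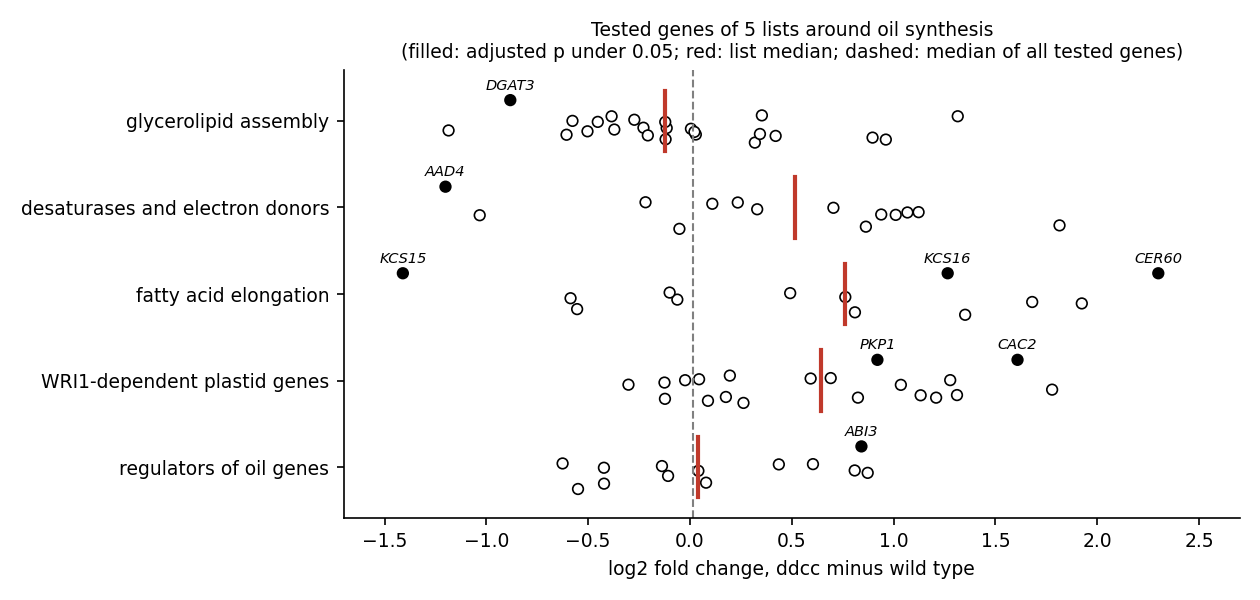
Log2 fold change (ddcc minus wild type, horizontal axis) of the tested genes in 5 lists around oil synthesis, 1 point per gene. Filled, named points passed the test, red bars mark list medians and the dashed line the median of all genes tested, 0.02. The medians run from -0.12 in glycerolipid assembly to 0.76 in elongation, and 8 genes are filled.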

How the data were processed

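For each library the authors deposited 1 table of a signal, the normalised read count of 27416 genes, neither whole nor per length. The submitters' processing notes name the TAIR10 build with Bowtie 0.12.7 and edgeR 3.10.5; per the labels' protocols, total RNA was amplified before library preparation. How reads were counted, and whether by strand, is not given in the sources used here. Replicate 2 is named in both wild-type tables per the file headers, although they hold different values. Within each genotype the values followed the equalisation of library sizes that the authors' edgeR offers. Inverting it gave whole reads for 100% of value pairs within a tolerance of 0.01, used for depths, intervals (95%, exact binomial), floors (3 reads) and voom. Intervals and floors cover counting error only and take the deposited scaling as given.

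Tests used limma 3.58.1 in R 4.3.3 with a variance trend on log2(value + 1 unit), a filter at a mean of 1 unit and Benjamini-Hochberg adjustment over all genes tested, after a check on simulated data. The pseudocount understates changes of low genes. The filter took the mean over all 4 libraries, so a gene that passed it through 1 genotype alone has its higher mean there. Members and lists were chosen with earlier results of these data known. Named genes were the members, in each list the gene with the highest mean count and the called genes, and the 2 nearest profiles of each tested member; others are said to have been picked after their values were seen. Models and upstream windows came from RefSeq's TAIR10.1, which keeps the nuclear sequences of TAIR10, and copies were searched with BLAST+ 2.17.0. A model was found for 26719 genes. Alternatives were other pseudocounts, filters, scalings, moderation, voom, a replicate block and each library left out. After the data were seen, coding length, the ratio of FAD2 to DGAT1 and list counts under each alternative were added.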

Additional observations from a re-analysis of the deposited data

How the results depend on the processing

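FAD2 kept its direction under all alternatives and its call under those not named here. It was lost in limma without a trend (log2 fold change 1.27, adjusted p = 0.131) and without either ddcc library, with 1.22 to 1.33 over the libraries left out in turn. DGAT1 and WRI1 kept their direction and stayed uncalled; with a filter at 5 units WRI1 has no value. PDAT1 turned to -0.067 after quantile normalisation and ran from -0.54 to 0.60 with a library left out. FAD3 ran from -0.14 to 1.22, called without wild-type replicate 1 alone. The cause was not tested. Over all genes 1023 were called, but 336 without a filter, 1646 with equal nuclear totals, 33 without a trend and 1 to 467 with a library left out. Higher calls made up 46.7% of calls with the deposited scaling, 57.2% after quantile normalisation, 87.4% with equal nuclear totals and 85.6% with equal library totals. Libraries with the same replicate number showed no shared deviation (correlation of deviations -0.05 across genes). With 2 libraries a genotype this cannot tell whether the numbers pair the libraries. With the replicate block FAD2 had an adjusted p of 0.000338, no other oil gene was called and 1381 genes were called over all. A log2 fold change had a median SE of 0.37, which limits what 2 libraries a genotype can show for genes as low as WRI1 and FAE1.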

Other observations

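The genes beside the oil genes on the chromosome gave further values without a test. Next to FAD2, AT3G12130 on the same strand, 820 bases before its start, had 61.7 and 85.5 in ddcc against 100.4 and 122 in wild type, below wild type where FAD2 was above. On either side of FAD3, AT2G29970 had 10.6 and 8.56 against 5.15 and 6.52, and AT2G29990 had 23.5 and 19.5 against 31.3 and 22.8. AT4G34540, the next gene after FAE1, had 52.6 and 109 in ddcc against 42.3 and 57.6 in wild type. It lies 2548 bases from FAE1, while KCS17, on the other side and nearer, had no read.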
